A study of Mus musculus with 24 samples.

Results

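Genes that carry fatty acids from the blood to the mitochondrial matrix of a muscle fibre were followed in quadriceps and soleus of mice with and without nebulin in muscle. The rule named 7 genes, Lpl, Cd36, Fabp3, Slc27a1, Acsl1, Cpt1b and Cpt2, and 5 of these 7 were read by a probe set that the array annotation pairs with 1 gene. Acsl1, a long-chain acyl-CoA synthetase that activates fatty acids, has no such probe set in the annotation used and was not analysed here. Cpt1b, the outer-membrane carnitine palmitoyltransferase of muscle, shares its 1 probe set with the predicted gene Gm44502 and was not analysed here either. The 5 measured genes were among 15999 genes tested, and each was above the limit for dim signal on all 6 arrays of every group.

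All mice were males aged 40 to 42 days that carried the conditional nebulin allele on both copies, and their strain background mixed 1219S6/SvEvTac with C57BL/6J. Conditional knockout mice (cKO) also carried 1 copy of a Cre transgene driven by the muscle creatine kinase promoter (MCK-Cre), and control mice had no Cre. The 4 groups were quadriceps control, quadriceps cKO, soleus control and soleus cKO, with 6 arrays each, described as biological replicates. The design text states that the cKO quadriceps was markedly smaller than that of controls and that the soleus was not significantly different in size. Recombination by MCK-Cre is limited to cells in which this promoter is active, so vessels, fat and immune cells in the sample are not its target.

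Nebulin, the giant protein of the thin filament, served as the check of the labels. The mean log2 intensity of Neb was 12.29 in quadriceps control, 10.84 in quadriceps cKO, 12.38 in soleus control and 11.24 in soleus cKO. The cKO arrays were lower by 1.45 (limma, adjusted p = 1.4e-10) in quadriceps and by 1.14 (limma, adjusted p = 2.27e-08) in soleus on the log2 scale, and control and cKO arrays did not overlap in either muscle. Array medians lay between 4.74 and 4.94, and the limit for dim signal, the 30th percentile of an array, between 3.51 and 3.72. All 10 muscle fibre markers were measured, with a mean log2 intensity of 11.79 to 12.26 per array, and all 10 slow fibre markers were higher in soleus than in quadriceps of controls.

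Muscle takes up fatty acids that lipoprotein lipase frees from circulating triglycerides at the capillary wall. The fatty acids cross the endothelium and the fibre membrane with the help of CD36 and fatty acid transport proteins, bind to a small carrier in the cytosol, and are activated to acyl-CoA. The carnitine shuttle then brings them into the mitochondrion for beta-oxidation, the main fuel route of oxidative fibres such as those that prevail in the soleus.

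Promoter windows from RefSeq (GRCm38.p6, 250 bases before to 50 bases after the start) are given for the 3 genes that show the 3 patterns of change described here. Cd36 was lower in cKO soleus and differed between the muscles in its change, Fabp3 was lower in cKO soleus with a small change, and Cpt2 was lower in both muscles. The windows lie at chr5:17835847-17836146 on the minus strand for Cd36, chr4:130308488-130308787 on the plus strand for Fabp3 and chr4:107923540-107923839 on the minus strand for Cpt2. Capitals mark matches to the nuclear receptor hexamer AGGTCA or to 2 such hexamers 1 base apart with up to 2 mismatches.
Cd36: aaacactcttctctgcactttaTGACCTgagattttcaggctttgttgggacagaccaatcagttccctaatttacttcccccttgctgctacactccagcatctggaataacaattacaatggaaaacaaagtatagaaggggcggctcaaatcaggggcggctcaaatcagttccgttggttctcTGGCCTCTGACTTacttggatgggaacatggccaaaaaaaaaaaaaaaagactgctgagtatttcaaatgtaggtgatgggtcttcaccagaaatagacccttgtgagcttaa
Fabp3: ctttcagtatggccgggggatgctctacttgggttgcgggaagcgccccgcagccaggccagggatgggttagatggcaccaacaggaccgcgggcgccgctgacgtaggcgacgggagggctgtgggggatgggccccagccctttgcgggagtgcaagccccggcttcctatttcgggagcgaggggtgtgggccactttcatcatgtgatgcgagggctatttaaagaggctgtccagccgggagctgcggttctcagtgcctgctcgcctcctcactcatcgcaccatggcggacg
Cpt2: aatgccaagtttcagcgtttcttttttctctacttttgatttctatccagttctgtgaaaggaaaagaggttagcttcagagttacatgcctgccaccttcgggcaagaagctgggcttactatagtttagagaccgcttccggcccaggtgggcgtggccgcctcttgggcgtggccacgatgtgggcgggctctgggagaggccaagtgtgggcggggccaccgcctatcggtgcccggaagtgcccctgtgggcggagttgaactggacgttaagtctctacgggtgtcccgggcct
On both strands the windows of Cd36, Fabp3, Slc27a1 and Cpt2 were searched for 5 motifs. The Cd36 window held a hexamer 228 bases before the start, on the opposite strand. A match with 2 mismatches to the pair of hexamers 1 base apart lay 63 bases before the start, also on the opposite strand. PPAR and RXR receptors bind such a pair, but neither hexamer of this match was exact. No match of either kind was present in the windows of Fabp3 and Cpt2 or in the 3 windows of Slc27a1. Of all 32851 windows of this length, 16.3% held the hexamer and 3.86% the pair with up to 2 mismatches. The estrogen-related receptor element TNAAGGTCA, which contains the hexamer, and the MEF2 motif were found in none of these windows, against 1.28% and 3.69% of all windows. The E-box CANNTG was present 1 or 2 times in each of these windows and in 72.3% of all windows. The Cd36 window belongs to a start inside the span of the gene, not at its outer end, and other starts of Cd36 were not searched. A match describes the letters alone.

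In soleus, all 5 genes were lower in cKO than in control muscle, and for each of them all 6 control arrays lay above all 6 cKO arrays. Of all genes tested, 9.94% were called lower and 13.2% higher in this comparison, and 4.96% had every control array above every cKO array. Lpl fell 1.91-fold, Slc27a1 1.85-fold, Cd36 1.6-fold, Cpt2 1.55-fold and Fabp3 1.24-fold. Called means an adjusted p under 0.05 in limma, with Benjamini-Hochberg adjustment over the 15999 genes. In a whole muscle sample, fewer cells of a type and less RNA per cell cannot be told apart.

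Lpl (Entrez 16956, chromosome 8, 68880555 to 68906932, GRCm38.p6) encodes lipoprotein lipase, the enzyme that releases fatty acids from lipoproteins at the capillary surface. In control soleus its log2 intensity ran from 11.27 over a median of 11.47 to 11.62, and in cKO soleus from 10.28 over 10.49 to 10.89. The lowest control array was thus above the highest cKO array. The change was -0.93 on the log2 scale (SE 0.13, 95% interval -1.19 to -0.67, limma, adjusted p = 3.75e-06), and 0.763% of the genes tested had a lower value. In quadriceps the control arrays ran from 9.97 over 10.32 to 10.86 and the cKO arrays from 10.23 over 10.41 to 10.90, so the groups overlapped. The difference there was 0.11 (SE 0.13, 95% interval -0.15 to 0.37, limma, adjusted p = 0.503) and did not pass the test.

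Cd36 (Entrez 12491, chromosome 5, 17781690 to 17888959) encodes the fatty acid translocase of the plasma membrane. Control soleus ran from 10.82 over a median of 11.26 to 11.48 and cKO soleus from 10.40 over 10.59 to 10.69 in log2 intensity. The groups did not overlap, although soleus control 1 lay only slightly above the highest cKO array. The change was -0.68 (SE 0.11, 95% interval -0.91 to -0.44, limma, adjusted p = 6.19e-05). Quadriceps control ran from 10.25 over 10.45 to 10.97 and quadriceps cKO from 10.39 over 10.50 to 10.97, almost the same range. The difference there was 0.07 (SE 0.11, 95% interval -0.16 to 0.30, limma, adjusted p = 0.643), and its sign turned when each array was centred on its 75th percentile and without quadriceps cKO 2.

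Slc27a1 (Entrez 26457, chromosome 8, 71568728 to 71587307) encodes fatty acid transport protein 1, a membrane protein that also has acyl-CoA synthetase activity. Its log2 intensity in control soleus ran from 8.56 over a median of 8.81 to 8.92, and in cKO soleus from 7.62 over 7.93 to 8.11. The groups did not overlap, and the SD was 0.13 in control soleus and 0.19 in cKO soleus. The change was -0.89 (SE 0.13, 95% interval -1.16 to -0.61, limma, adjusted p = 1.25e-05). In quadriceps the control arrays ran from 7.36 over 8.11 to 8.26 and the cKO arrays from 7.34 over 7.87 to 8.10, and the difference of -0.18 (SE 0.13, 95% interval -0.45 to 0.10, limma, adjusted p = 0.296) did not pass. The low value of 7.36 came from quadriceps control 4, the array with the lowest estimated weight (0.207, where 1 is average). Without it the quadriceps difference of Slc27a1 was -0.30 (limma, adjusted p = 0.0367). This was the 1 setting of 36 alternatives that called it, and the fit with array weights did not.

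Fabp3 (Entrez 14077, chromosome 4, 130308738 to 130315463) encodes the fatty acid-binding protein of heart and skeletal muscle, the carrier in the cytosol. It was measured with little scatter in soleus, from 11.90 over a median of 11.98 to 12.07 in controls and from 11.54 over 11.68 to 11.78 in cKO. The groups did not overlap, and the change was -0.31 (SE 0.08, 95% interval -0.47 to -0.14, limma, adjusted p = 0.00597). Quadriceps control ran from 11.18 over 11.45 to 11.61 and quadriceps cKO from 11.11 over 11.27 to 11.63, with wide overlap. The difference there was -0.14 (SE 0.08, 95% interval -0.30 to 0.03, limma, adjusted p = 0.186), and it passed without quadriceps cKO 4 (-0.20, limma, adjusted p = 0.0397) and with arrays centred on the 75th percentile (-0.22, limma, adjusted p = 0.0272). A second Fabp3 probe set gave -0.15 (limma, adjusted p = 0.145) in quadriceps and -0.33 (limma, adjusted p = 0.00429) in soleus. RefSeq lists a pseudogene, Fabp3-ps1, on another chromosome, and signal from such a copy cannot be told apart here, so the level of Fabp3 is uncertain to that extent.

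Cpt2 (Entrez 12896, chromosome 4, 107903982 to 107923589) encodes carnitine palmitoyltransferase 2 of the inner mitochondrial membrane, which turns acylcarnitine back into acyl-CoA. It was the 1 gene of the 5 that was called in quadriceps. Quadriceps control ran from 8.70 over a median of 8.89 to 9.20 and quadriceps cKO from 8.19 over 8.53 to 8.78, so the ranges overlapped slightly. The change was -0.40 (SE 0.12, 95% interval -0.65 to -0.16, limma, adjusted p = 0.0084), a 1.32-fold lower intensity. Of all genes, 17.7% were called lower and 22.3% higher in quadriceps, and 6.06% had every control array above every cKO array, which none of the 5 genes did. In soleus the controls ran from 8.65 over 8.80 to 9.37 and the cKO arrays from 8.06 over 8.22 to 8.44. The groups did not overlap, and the change was -0.63 (SE 0.12, 95% interval -0.87 to -0.39, limma, adjusted p = 0.000213).

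**Figure D1:**
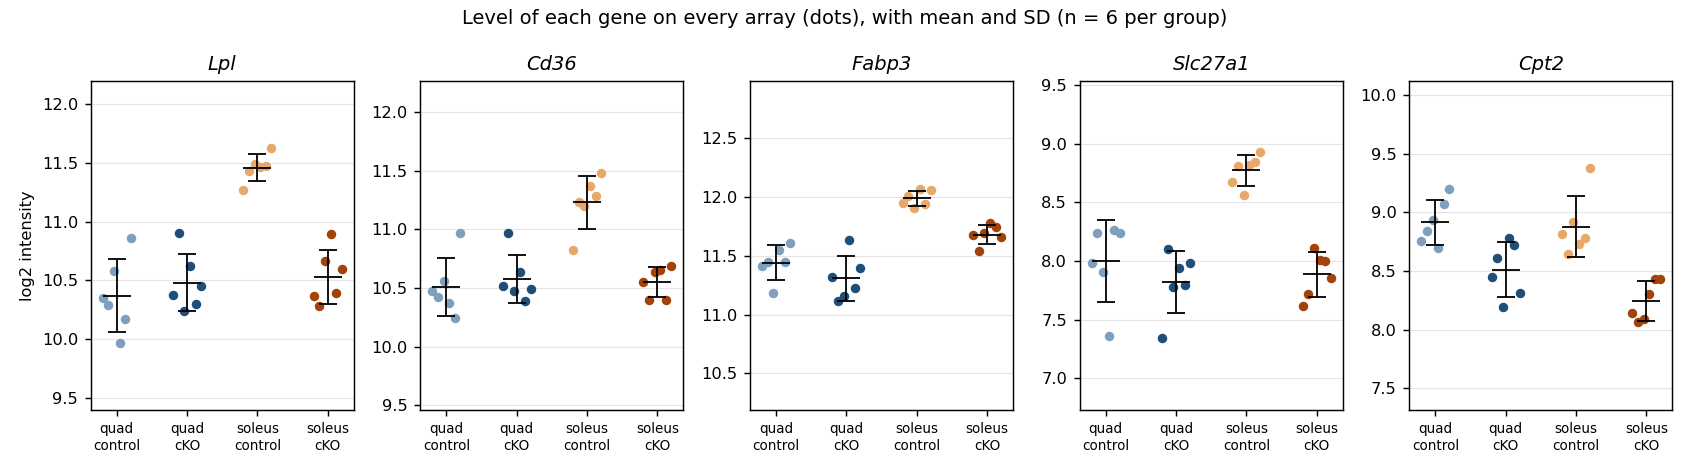
Log2 intensity of Lpl, Cd36, Fabp3, Slc27a1 and Cpt2 on each of the 24 arrays, by group, with the mean and SD of the 6 arrays of a group. The soleus control arrays of Lpl (11.27 to 11.62), Cd36, Fabp3 and Slc27a1 stand above the soleus cKO arrays and, on average, above both quadriceps groups, while Cpt2 is lower in cKO of both muscles.

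The change in soleus was tested against the change in quadriceps as a term of the same model. The soleus change minus the quadriceps change was -1.04 for Lpl (SE 0.18, limma, adjusted p = 0.000397), -0.75 for Cd36 (SE 0.16, limma, adjusted p = 0.00301) and -0.71 for Slc27a1 (SE 0.19, limma, adjusted p = 0.0131). Of all genes, 7.39% were called lower and 4.89% higher in this difference, 1966 genes in all. With same-numbered arrays as 1 mouse in a random block, 2952 genes were called, and with array weights 3570. The difference of Slc27a1 was -0.72 (limma, adjusted p = 0.136) when only mice aged 41 days were kept, 3 or 4 arrays per group. For Fabp3 the difference was -0.17 (95% interval -0.41 to 0.06, limma, adjusted p = 0.357) and for Cpt2 -0.23 (95% interval -0.57 to 0.11, limma, adjusted p = 0.409). Both intervals include 0 and reach differences larger than the quadriceps change itself, so they do not show that the muscles acted alike.

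**Figure D2:**
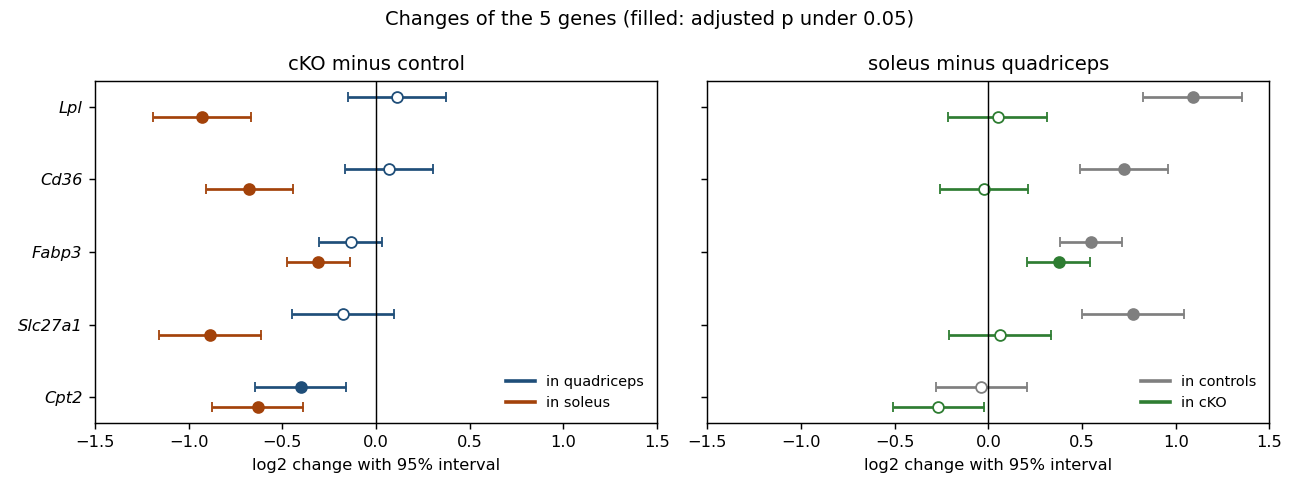
Log2 changes of the 5 genes with 95% intervals, cKO minus control on the left (quadriceps and soleus) and soleus minus quadriceps on the right (controls and cKO); filled points have an adjusted p under 0.05. All 5 soleus changes lie left of 0, from -0.93 for Lpl to -0.31 for Fabp3, and in quadriceps the 1 filled point is Cpt2.

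In control mice Lpl, Slc27a1, Cd36 and Fabp3 were higher in soleus than in quadriceps. Lpl was 2.13-fold higher (1.09 on the log2 scale, SE 0.13, limma, adjusted p = 2.17e-07), Slc27a1 1.71-fold (0.77, SE 0.13, limma, adjusted p = 5.38e-05), Cd36 1.65-fold (0.72, SE 0.11, limma, adjusted p = 1.87e-05) and Fabp3 1.46-fold (0.55, SE 0.08, limma, adjusted p = 7.95e-06). Cpt2 differed by -0.04 (95% interval -0.28 to 0.21, limma, adjusted p = 0.83), with a sign that turned under 2 of the 3 other scalings. Of all genes, 15.2% were called higher and 18.3% lower in soleus. For Lpl, Fabp3 and Slc27a1 every soleus array was above every quadriceps array, as for 3.94% of all genes.

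In cKO mice, Lpl differed between soleus and quadriceps by 0.05 (95% interval -0.21 to 0.31, limma, adjusted p = 0.795), Cd36 by -0.02 (95% interval -0.26 to 0.21, limma, adjusted p = 0.884) and Slc27a1 by 0.06 (95% interval -0.21 to 0.33, limma, adjusted p = 0.745). The sign of each of these 3 values turned under 1 of the 3 other scalings. Their upper bounds of 0.31, 0.21 and 0.33 are below the differences of 1.09, 0.72 and 0.77 measured in controls. Fabp3 was still 1.30-fold higher in soleus (0.37, SE 0.08, limma, adjusted p = 0.00128). Cpt2 was lower in soleus by 0.27 without passing the test (95% interval -0.51 to -0.02, limma, adjusted p = 0.089), and it passed with same-numbered arrays as 1 mouse in a random block (limma, adjusted p = 0.0442), with array weights (limma, adjusted p = 0.0288) and without quadriceps cKO 3 (-0.33, limma, adjusted p = 0.0365). It did not pass in the random block when the cKO arrays numbered 4, listed at 40 days for quadriceps and 41 days for soleus, were kept as separate mice (limma, adjusted p = 0.0547). Of all genes, 11.9% were called higher and 16.9% lower, and 5.33% had every soleus array above every quadriceps array, which none of the 5 genes did. The comparisons between muscles and between genotypes share the same 4 groups, so they are not separate evidence.

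The order of the 4 group means differed among the genes. For Lpl it was soleus control (11.46), soleus cKO (10.53), quadriceps cKO (10.48) and quadriceps control (10.37), and only soleus control stood clear of its neighbour. Cd36 had the order soleus control (11.23), quadriceps cKO (10.58), soleus cKO (10.55) and quadriceps control (10.51), and the ranges of neighbours overlapped throughout. Slc27a1 ran from soleus control (8.77) over quadriceps control (8.0) and soleus cKO (7.88) to quadriceps cKO (7.82), with a gap below soleus control alone. Fabp3 ran from soleus control (11.99) over soleus cKO (11.68) and quadriceps control (11.44) to quadriceps cKO (11.31), again with a gap below soleus control alone. Cpt2 had both control groups on top, quadriceps (8.91) and soleus (8.88), then quadriceps cKO (8.51) and soleus cKO (8.25), and the ranges of neighbours overlapped. Intensities are not comparable between genes, so each order holds within its gene.

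Lpl and Cd36 moved together across the 24 arrays (Pearson r = 0.95), and also within groups once the group means were subtracted (r = 0.84). Within groups r was 0.56 for Lpl with Slc27a1, and between 0.12 and 0.29 for Fabp3 with the other 4 genes. These values describe arrays that share groups and, going by their numbers, may share mice, and they carry no test. On the quadriceps side, control 6 was the highest control array for both Lpl (10.86) and Cd36 (10.97), and cKO 2 was the highest cKO array for both (10.90 and 10.97). Quadriceps cKO 2 also had the highest mean of the adipocyte markers, 9.88 against 8.50 to 8.78 on the other 5 arrays of its group. Quadriceps control 6 had the highest mean of the endothelial markers, 8.10 against 7.57 to 7.74 on the other 5. Neither array stood out for 1 list alone. Quadriceps cKO 2 was also the highest of its group for the endothelial markers (7.79) and the fibro-adipogenic progenitor markers (9.90). Quadriceps control 6 was also the highest of its group for the beta-oxidation genes (9.99).

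Genes whose log2 intensity over the 24 arrays was most like that of each gene were taken by Pearson r as a description. Epas1 (r = 0.92) and Ppp1r16b (r = 0.91) were nearest to Lpl, Adgrf5 (r = 0.92) and Adgrl4 (r = 0.90) to Cd36, and Dhrs4 (r = 0.93) and Acat1 (r = 0.92) to Slc27a1. Pla2g12a (r = 0.93) and Ldhb (r = 0.92) were nearest to Fabp3, and Pdhx (r = 0.94) and Ndufa10 (r = 0.94) to Cpt2. After the group means were subtracted, the 3 genes with the highest mean r over the 5 genes were Hadha (0.59), Acadm (0.58) and Etfdh (0.57).

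The surrounding pathway was read from 6 wider lists with 91 genes, of which 86 were tested. In soleus, 35 of these 86 (40.7%) were called lower and 4 (4.65%) higher in cKO, against 9.94% and 13.2% of all genes, and the median change was -0.26 against -0.02 over all genes. In quadriceps, 26 (30.2%) were lower and 18 (20.9%) higher, against 17.7% and 22.3% of all genes, with a median of -0.03 against -0.01, so the share of higher genes was near that of all genes. For the difference between the muscles, 11 (12.8%) were lower and 1 higher, against 7.39% and 4.89% of all genes, with a median of -0.24 against -0.00. Between muscles of controls, 31 (36%) were higher and 11 (12.8%) lower in soleus, against 15.2% and 18.3% of all genes. In cKO 10 (11.6%) were higher and 21 (24.4%) lower, against 11.9% and 16.9%. Counts of the single lists, markers included, are to be read against the same shares. These are 22.3% higher and 17.7% lower in quadriceps and 13.2% higher and 9.94% lower in soleus. Between muscles they are 15.2% higher and 18.3% lower in controls and 11.9% and 16.9% in cKO. In the difference they are 4.89% higher and 7.39% lower.

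Uptake and lipoprotein handling had 12 genes. In quadriceps 4 rose in cKO and 0 fell, with a median of 0.22. One of these calls, that of the transport protein Slc27a4 (0.22, limma, adjusted p = 0.0493), was lost in 24 of 36 alternative settings. The receptor Lrp1 rose by 0.87 (limma, adjusted p = 2.61e-08), Angptl4, a secreted inhibitor of lipoprotein lipase, by 0.87 (limma, adjusted p = 0.00152) and the binding protein Fabp5 by 0.48 (limma, adjusted p = 0.0104). In soleus 1 rose and 2 fell, with a median of -0.03. There the caveolar protein Cav1 fell by 0.48 and the lipoprotein receptor Vldlr by 0.36, and Lrp1 rose by 0.32. Both Cav1 (-0.55) and Lrp1 (-0.55) were called in the difference between the muscles. Between muscles of controls, 1 of the 12 was called higher in soleus and 0 lower, against 15.2% and 18.3% of all genes. Gpihbp1, which anchors lipoprotein lipase in the capillary and was picked for that role after its values were seen, differed in soleus by -0.26 (limma, adjusted p = 0.131).

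Activation and acyl-CoA handling had 16 tested genes. In soleus 6 fell and 2 rose, with a median of -0.19, and in quadriceps 4 fell and 3 rose, with a median of 0.08. The mitochondrial thioesterase Acot13 fell in quadriceps by 0.76 and in soleus by 0.57, and the acyl-CoA synthetase Acsl6 fell by 0.54 and by 0.51. Acsf2, an acyl-CoA synthetase family member, rose by 0.71 in quadriceps and by 0.83 in soleus. Both counts in quadriceps and the count of higher genes in soleus lie near the shares over all genes.

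Carnitine and malonyl-CoA handling had 10 tested genes. In soleus 3 fell and 1 rose, with a median of -0.19, and in quadriceps 3 fell and 2 rose, with a median of 0.01. The carnitine-acylcarnitine carrier Slc25a20, the step between the outer and the inner palmitoyltransferase, fell by 0.41 in soleus and by 0.30 in quadriceps (limma, adjusted p = 0.0347), a call that was lost in 13 of 36 alternative settings. Carnitine acetyltransferase (Crat) fell by 0.38 in soleus and by 0.29 in quadriceps, and the carnitine importer Slc22a5 fell by 0.39 in soleus. Slc22a4, a related organic cation transporter, rose by 1.16 in soleus and by 0.95 in quadriceps. Cpt1a, the outer-membrane palmitoyltransferase best known from liver, rose by 0.58 in quadriceps.

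Beta-oxidation, the step after Cpt2, had 16 genes, and 15 of them fell in cKO soleus with a median of -0.64. In quadriceps 9 of the 16 fell, with a median of -0.32. Both cKO comparisons held 0 higher genes in this list, also at an unadjusted p under 0.05 (limma). In soleus the acetyl-CoA acetyltransferase Acat1 fell by 0.85, the enoyl-CoA isomerase Eci1 by 0.87, the very-long-chain dehydrogenase Acadvl by 0.68 and the enoyl-CoA hydratase Echs1 by 0.64. In quadriceps Acadvl fell by 0.44, Echs1 by 0.41, Eci1 by 0.36 and the medium-chain dehydrogenase Acadm by 0.36. Of the 16, 6 were called lower in the difference between the muscles, against 7.39% of all genes. Soleus was called above quadriceps for 13 of the 16 in controls (median 0.41), against 15.2% of all genes. In cKO 0 were called (median 0.00), against 11.9% higher and 16.9% lower of all genes. At an unadjusted p under 0.05 (limma), 1 was higher and 0 lower in cKO.

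Lipid droplet and lipolysis genes numbered 15. In soleus 5 fell and 0 rose (0 also at an unadjusted p under 0.05, limma), with a median of -0.28. The droplet coat proteins Plin5 and Plin3 fell by 0.75 and 0.44, and Dgat2, the last enzyme of triglyceride synthesis, by 0.63. In quadriceps 4 fell and 3 rose, with a median of 0.05. There Gpam, the first enzyme of glycerolipid synthesis, fell by 0.63 and Dgat1 rose by 0.54.

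Regulators and targets of the PPAR receptors numbered 17. In soleus 4 fell and 0 rose (1 at an unadjusted p under 0.05, limma), with a median of -0.14. The coactivator Ppargc1a fell by 1.78 (limma, adjusted p = 0.00011), from 9.55 ± 1.09 in controls to 7.77 ± 0.40 in cKO (SD, n = 6). The receptor Rxrg fell by 1.35, Ppara by 1.09 (limma, adjusted p = 0.000132) and the AMP kinase subunit Prkaa2 by 0.65. In quadriceps 6 fell and 6 rose, with a median of -0.06. There Rxrg fell by 1.56, Prkaa2 by 0.67 and Rxra by 0.53, and the estrogen-related receptor Esrrg rose by 1.20. Esrrg was called in the difference between the muscles (-1.45).

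**Figure D3:**
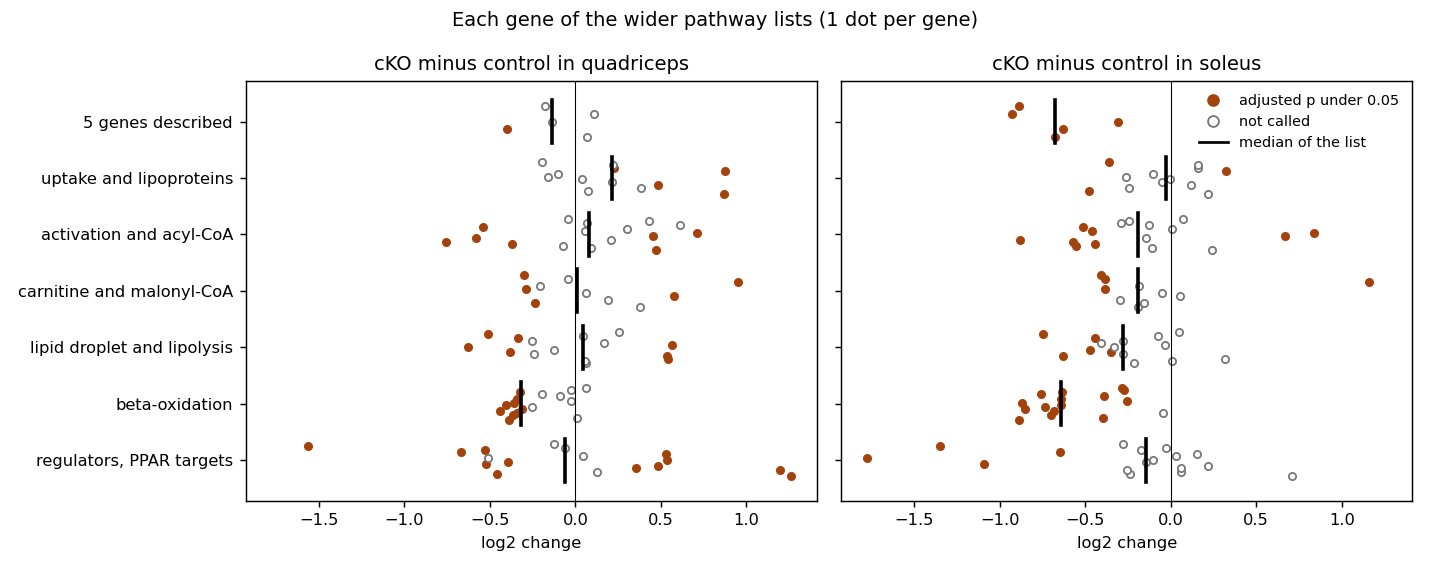
Log2 change, cKO minus control, of every tested gene of the 5 measured genes and the 6 wider lists, in quadriceps and soleus. In soleus the beta-oxidation list has the lowest median of the 6 wider lists (-0.64), with 15 of 16 genes lower, beside a median of -0.68 for the 5 measured genes, and the uptake list is centred above 0 in quadriceps (median 0.22).

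Lpl, Cd36 and the other uptake genes are known from vessels, fat and macrophages as well as from fibres, so markers of these cells were read on the same arrays. Gpihbp1 is on both the uptake and the endothelial list, Fabp4 on the uptake and the adipocyte list, and Lipe, Pparg and Cidec on a pathway list and the adipocyte list. None of the markers was below the dim limit on every array of a group. Of 13 endothelial markers, 9 fell in cKO soleus and 0 rose (0 also at an unadjusted p under 0.05, limma), with a median of -0.37. Kdr, a receptor for vascular endothelial growth factor, fell by 1.17, Emcn by 0.71, Flt1 by 0.68 and Tek by 0.61. Their mean log2 intensity was 7.88 to 8.34 in control soleus and 7.40 to 7.65 in cKO soleus, with no overlap. In quadriceps 0 of 13 were called, with 0 higher and 1 lower at an unadjusted p under 0.05 (limma), and the ranges overlapped (7.57 to 8.10 in controls, 7.40 to 7.79 in cKO). Between muscles of controls 7 of 13 were higher in soleus, against 15.2% of all genes. In cKO 0 were called (0 also at an unadjusted p under 0.05, limma), against 11.9% higher and 16.9% lower of all genes. The endothelial markers thus moved with Lpl, Cd36 and Slc27a1. Of the 16 beta-oxidation genes, 15 were lower in cKO soleus as well. The part of endothelial cells in the changes of Lpl, Cd36 and Slc27a1 was not tested.

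Other cell types moved in other ways. Of 9 adipocyte markers, 7 rose in cKO quadriceps (median 0.78), among them Retn by 1.48, Cidec by 1.26 and Adipoq by 1.04, and 1, Car3, rose in soleus by 0.45. Car3, a carbonic anhydrase that muscle fibres also make, had mean log2 intensities of 11.94 to 13.02 in the 4 groups and was brighter in control soleus (12.57) than in control quadriceps (11.94). The mean log2 intensity of the 9 adipocyte markers ran from 7.70 to 8.98 in quadriceps control and 8.50 to 9.88 in quadriceps cKO. In soleus it ran from 7.45 to 8.09 in control and 7.67 to 8.64 in cKO. Of 12 macrophage markers, 10 rose in quadriceps (median 0.69) and 10 in soleus (median 0.59), with Cd68 up by 1.15 and 2.10. The mean of the macrophage markers was 6.07 to 6.81 in quadriceps control and 7.0 to 7.29 in quadriceps cKO, and 5.94 to 6.40 in soleus control and 6.50 to 7.01 in soleus cKO. Of 9 markers of fibro-adipogenic progenitors, the stromal cells of muscle, 7 rose in quadriceps (median 0.58) and 6 in soleus (median 0.47). Most macrophage and stromal markers were thus higher in the soleus in which the 5 genes were lower, and their part in these values was not tested.

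Fibre type markers moved with genotype as well. All 10 slow fibre markers rose in cKO quadriceps (median 1.94), while in soleus 3 rose and 1 fell (median 0.33). Of these soleus calls, that of Myl3, which fell by 0.34, was lost in 20 of 36 alternative settings and that of Tnnc1, which rose by 0.58, in 6. Of 12 fast fibre markers, 7 fell and 1 rose in quadriceps (median -0.28), and 9 fell and 0 rose in soleus (0 also at an unadjusted p under 0.05, limma), with a median of -0.60. Of 10 general muscle fibre markers, 4 rose and 4 fell in quadriceps (median 0.05), and 1 rose and 2 fell in soleus (median 0.01). Lpl, Cd36, Fabp3 and Slc27a1 were each higher in soleus than in quadriceps of controls. In cKO quadriceps 0 of them were called higher (0 also at an unadjusted p under 0.05, limma), against 22.3% of all genes. For so few genes this count is near that share. The part of fibre type in these values was not tested.

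**Figure D4:**
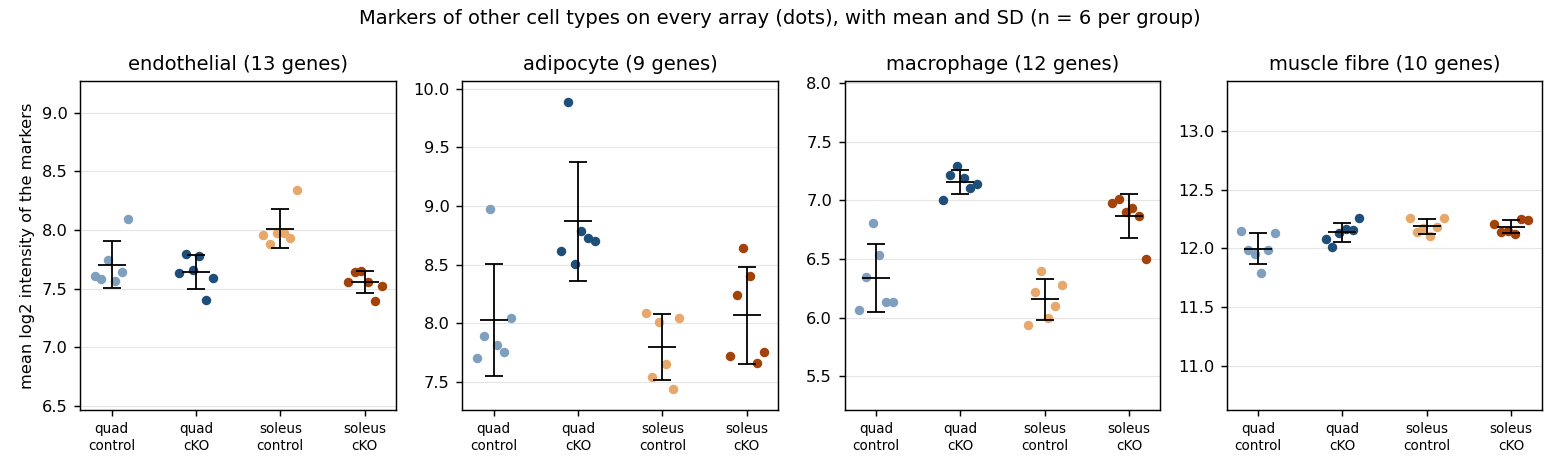
Mean log2 intensity of the marker lists on each array, by group. The endothelial means of control soleus (7.88 to 8.34) lie above those of cKO soleus (7.40 to 7.65), and the macrophage means of cKO lie above those of controls in both muscles.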

How the data were processed

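Gene expression was measured on Affymetrix arrays, 1 per sample. The authors deposited linear intensity values made with Affymetrix Expression Console and RMA, with the build mm10, per the submitters' processing notes; no version is given there. These deposited intensities were turned to log2 values. Among 35557 probe sets, 21789 have 1 symbol, 1621 have several and 12147 have none in the annotation, and 21698 were matched to RefSeq (GRCm38.p6) by Entrez identifier. Each of 19938 genes was represented by its brightest probe set (mean of 24 arrays), and 15999 genes above the 30th percentile of an array on at least 6 arrays were kept. RMA shrinks differences between dim probe sets, so folds of dim genes are understated. No pair of arrays was identical. Precision is limited by the number of arrays, with a median standard error of 0.10 between groups.

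A model with 4 group means was fitted over all genes with limma 3.58.1 in R 4.3.3 (residual df 20, two-sided, Benjamini-Hochberg), and it was tested on simulated data. Members and lists were chosen with earlier results of these data known. Named are all members, from each list up to 4 called genes per cKO comparison with the smallest p, and genes of like pattern: for each member the 2 genes with the highest r, and the 3 with the highest mean r after group means were subtracted. The main model had no block, so its tests between the muscles took all arrays as independent. Quadriceps and soleus arrays with the same number in their titles were compared by their deviations from the group means. The correlation was 0.16 to 0.31 in controls and 0.22 to 0.45 in cKO, over 0.1 in all 6 pairs of each. An alternative fit therefore treated them as muscles of 1 mouse in a random block. The labels do not settle this: the ages of cKO number 4 differ (quadriceps 40 days, soleus 41 days), so a block with these apart was added. Control and cKO arrays of the same number correlated by -0.15 to 0.17 in quadriceps (over 0.1 in 3 of 6) and 0.04 to 0.32 in soleus (4 of 6), and were not taken as paired. Alternatives were 3 scalings, other filters and probe set rules, array weights, both blocks, leaving out each array and, chosen after seeing the data, mice aged 41 days alone, the block with cKO number 4 apart, the other Fabp3 probe set, and leaving out the array of each group richest in adipocyte markers.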

Additional observations from a re-analysis of the deposited data

Results flagged for a closer look

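Cpt2 on soleus control array 6 had a log2 intensity of 9.37 and stood apart from the other 5 arrays of its group. The gap to the nearest array was 0.632 of the range of the group. This was 1 of 20 groups of 6 arrays examined for the 5 genes, and chance sets apart about 1 in 20 such groups.

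The change with cKO differed between soleus and quadriceps by -1.04 for Lpl, -0.75 for Cd36 and -0.71 for Slc27a1 on the log2 scale, each tested as a term of the limma model over all genes.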

How the results depend on the processing

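All 5 genes kept their call as lower in cKO soleus under each of 36 alternatives (adjusted p of at most 0.031), and Lpl and Cd36 theirs in the difference between the muscles. In quadriceps, 2 genes in place of 1 were called lower with arrays centred on the 75th percentile, and 1 to 2 when 1 array was left out.

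Values near 0 turned sign. With arrays centred on the 75th percentile, Cd36 was -0.0119 in quadriceps, Cpt2 0.0088 between muscles of controls and Cd36 0.0685 between muscles of cKO. Quantile normalization gave 0.0647 for Cpt2 in controls. Centring on the median gave -0.015 for Lpl and -0.0015 for Slc27a1 in cKO, and moved the median difference between muscles of controls over all genes from 0.03 to -0.07. Without the array richest in adipocyte markers of each group, Cd36 was 0.0373 in cKO. Leaving out 1 array gave 0.0272 to 0.209 for Lpl and -0.0072 to 0.163 for Cd36 in quadriceps, -0.137 to 0.0184 for Cpt2 in controls and, in cKO, -0.0619 to 0.053 for Cd36, -0.0243 to 0.133 for Lpl and -0.0344 to 0.118 for Slc27a1.

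With mice aged 41 days alone, 4127 genes in place of 6399 were called in quadriceps, 2259 in place of 3694 in soleus, 625 in place of 1966 in the difference and 1686 in place of 4614 between muscles of cKO. The difference had 3570 calls with array weights and 2952 with same-numbered arrays as 1 mouse in a random block (2932 with the cKO arrays numbered 4 kept apart). A fixed replicate block by the number in the titles left the same 5 genes called in soleus and moved the count there to 4176. The blocks changed no other call of the 5 genes than that of Cpt2 between muscles of cKO.

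The share of called genes that were higher depended on the scaling. It was 55.7% in quadriceps (37.5% to 53.0% under 3 other scalings), 57.0% in soleus (47.3% to 66.9%), 39.8% in the difference (48.0% to 54.4%), 45.4% between muscles of controls (22.3% to 56.2%) and 41.3% in cKO (24% to 68.6%). Of the values of the named list genes in the cKO comparisons, 3363 kept direction and call and 93 lost the call. These genes were picked as called with the smallest p, so that choice favours kept calls. The 5 genes were above the dim limit on every array.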
